A study of Mus musculus with 14 samples.

Results

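The genes described here are 10 markers of hepatic stellate cells and myofibroblasts, taken by their symbol from 17552 genes with group expression values in male mouse liver. Stellate cells lie between the sinusoidal endothelium and the hepatocytes and store most of the vitamin A of the liver as retinyl esters. In injured or fatty liver they can lose these stores, turn into contractile myofibroblasts and deposit collagen-rich matrix, which is the main cellular route to liver fibrosis. By their known roles the 10 were sorted into 4 markers of stellate cell identity (Lrat, Reln, Des and Pdgfrb), 2 contractile genes of myofibroblasts and smooth muscle (Acta2 and Tagln) and 4 genes of the extracellular matrix and its turnover (Timp1, Lox, Dcn and Lum).

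Both groups were male C57BL/6 mice deficient in Apoe, so the gene for apolipoprotein E was disrupted in the controls as well. The control group received a Western diet alone and the other group the same diet with erythrodiol, a triterpene of the olive. Its dose was 10 mg per kg of mouse, not of diet, as the paper estimates from an assumed food intake. The diets were given for 8 weeks by the labels, which also give an age of 8 weeks, and for longer by the study's methods. Liver RNA was pooled from a few mice per pool, and 7 pools per group were each sequenced as a library on the BGISEQ-500 platform. The comparison addresses the influence of erythrodiol on hepatic gene expression. For genes, the values are estimated read counts summed over the 7 libraries of each group, 1 value per gene and group, so a ratio between the groups has no replicate check and no p-value is given. The sums over all genes were 122889032 counts in the control and 124686047 with erythrodiol, and levels were expressed as CPM, counts scaled to these totals, whose ratio is given as erythrodiol over control. Intervals are exact at 95% and cover counting error only, not the spread between pools or mice.

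Libraries held between 34856340 and 55244294 clean reads in the control group and between 47669656 and 48058606 with erythrodiol. The share of reads mapped to genes ranged from 64.3% to 81.4% and from 73.0% to 76.1%, respectively. The control group was thus the more uneven, and since no gene value of a single library was used, no sum could be recomputed without a library. Apoe itself was listed with 9403 and 8293 counts, so reads were assigned to the disrupted gene in both groups. The paper reports that RT-PCR found no hepatic Apoe expression in Apoe-deficient mice, which is a different measure from summed read counts. The hepatocyte marker Alb had 9898790 and 9665610 counts. In bulk liver, fewer cells of a type and less RNA per cell cannot be told apart, and this holds for every marker below.

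A minimum of 100 counts over both sums was met by 13291 genes. Their median log2 ratio of erythrodiol to control was 0.16 and moved with transcript length. Among the 1330 shortest genes, of up to 1211 bases, it was -0.18, and among the 1329 longest, of 6116 bases or more, 0.33. Each gene was therefore also set against the genes nearest to it in length, called genes of like length below, and the shift of 0.16 between all genes and 0 applies to every ratio by totals. The plot of the ratio against transcript length shows how this background lies beneath the markers.

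**Figure D1:**
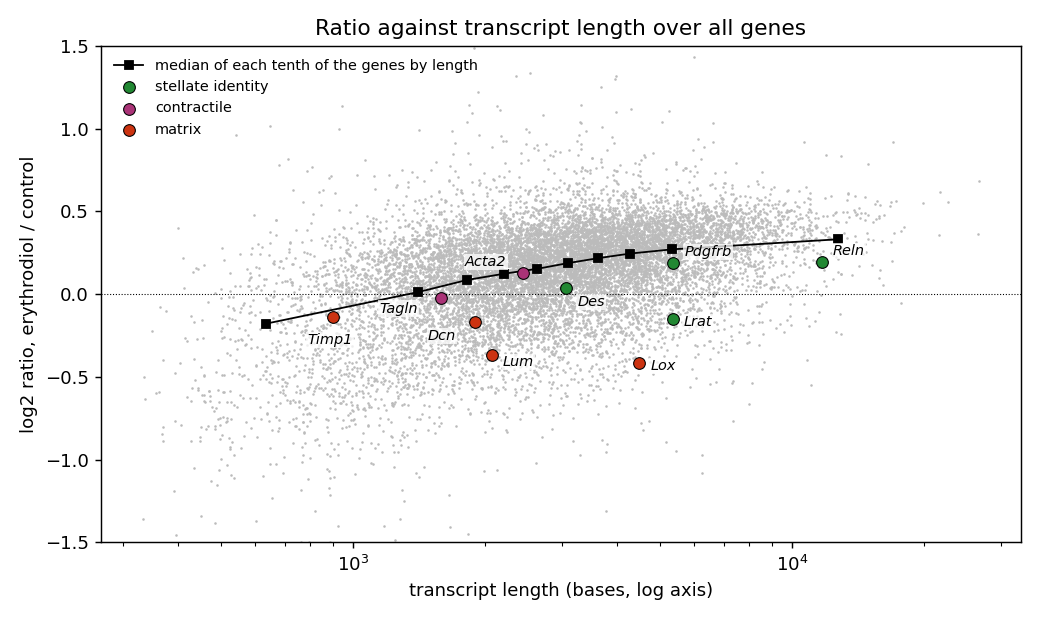
Log2 ratio of erythrodiol to control (vertical axis) against transcript length in bases (horizontal log axis) for 13266 genes with at least 100 counts, drawn as grey points, with 25 more outside the axis. Black squares are medians of 10 classes of genes by length, going from -0.18 to 0.33, and coloured points are the 10 markers by role, of which Lox, Lum and Lrat lie farthest beneath the line.

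The 10 markers lay on both sides of 0 by totals, and 0 of them reached a fold of 1.5. Their log2 ratios lay between -0.42 for Lox and 0.19 for Reln, with a median of -0.08 against 0.16 over all genes. Of the 10, 4 were above 0 (Reln, Pdgfrb, Acta2 and Des, all below genes of like length), where 71.2% of all genes were, and 6 below, where 28.8% were. The counting interval lay wholly above 0 for 2 of them (54.6% of all genes), wholly below for 4 (17.4%) and held 0 for the other 4. A fold of 1.5 or more upwards was seen for 2.55% of all genes and downwards for 3.14%. Relative to genes of like length, 9 of the 10 were below the median, with a median distance of -0.15, and 1 of the 10, Lox, was lower by more than 1.5-fold, where 3.52% of all genes were. Upwards of like length by that fold there were 0 of the 10 and 1.02% of all genes. Lox, Lum, Lrat, Dcn and Reln lay beneath the middle 50% of their neighbours in length, as 25.3% of all genes did, and 0 of the 10 above it, against 25.1% of all genes.

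**Figure D2:**
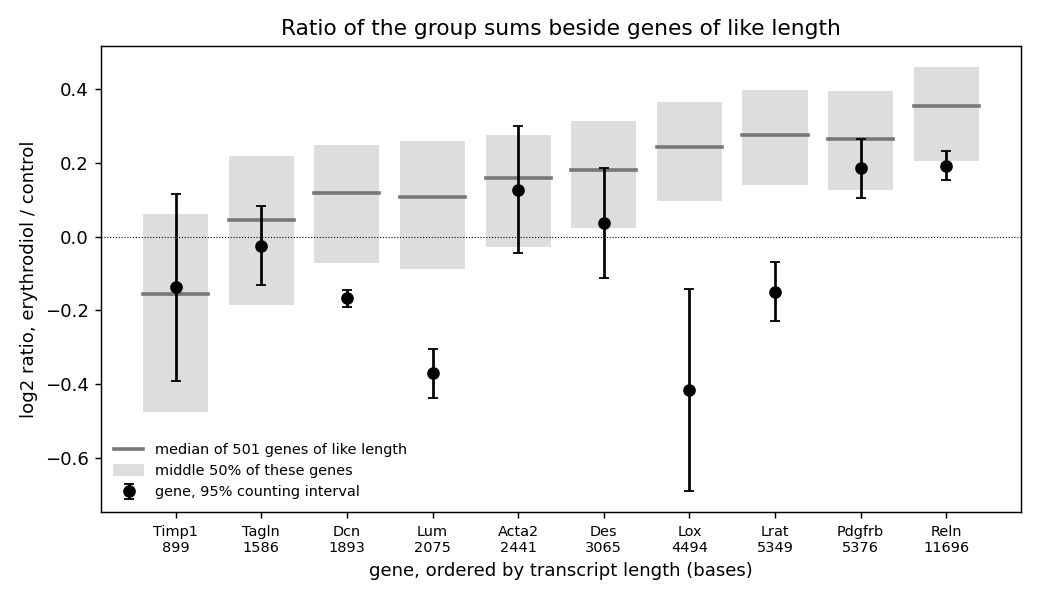
Log2 ratio of erythrodiol to control (vertical axis) for the 10 markers, ordered by transcript length in bases, as points with 95% counting intervals. Grey bars give the middle 50% and grey lines the median of genes of like length, and the points of Dcn, Lum, Lox and Lrat lie with their whole interval beneath the bar, whereas Timp1 (-0.14) sits next to its line (-0.16).

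By level, the markers differed far more among themselves than between the groups. Per kilobase of transcript, Dcn was the most abundant with 142 CPM per kilobase in the control, rank 503 of the 17552 genes, and Lum followed with 16.1. Tagln (7.35) and Reln (6.83) came next, then Lrat (4.14), Pdgfrb (3.52), Timp1 (2.44), Des (1.92), Acta2 (1.76) and Lox (0.469). With erythrodiol 2 pairs of neighbours changed places on this scale, Reln (7.80) standing above Tagln (7.23), and Pdgfrb (4.00) above Lrat (3.73), the latter with overlapping counting intervals (3.85 to 4.16 and 3.59 to 3.88). In the counting intervals of the level per kilobase, Des and Acta2 overlapped in both groups, with 1.78 to 2.06 and 1.62 to 1.92 in the control, and Timp1 overlapped with both Des and Acta2 with erythrodiol (1.95 to 2.52, 1.83 to 2.11 and 1.77 to 2.09). Dcn alone held 59.8% of the counts of the 10 genes in the control and 56.4% with erythrodiol, so the sum of the 10, 449 and 423 CPM, is mostly its own value.

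**Figure D3:**
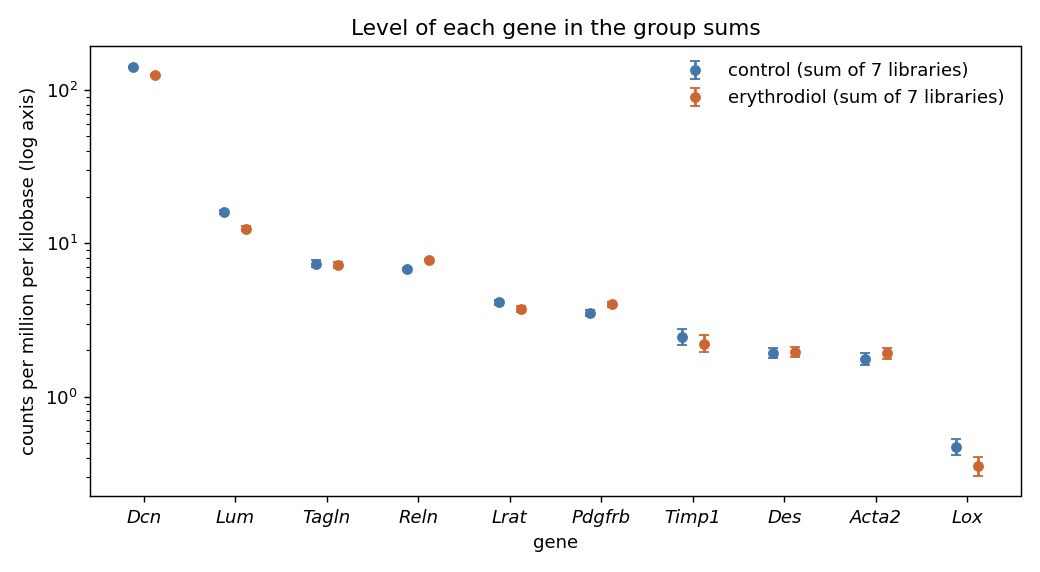
Level of each marker in CPM per kilobase (vertical log axis) in the control sum and the erythrodiol sum of 7 libraries each, with exact 95% counting intervals as bars. Levels go from 142 for Dcn to 0.469 for Lox in the control, and the gaps between genes are much wider than those between the groups.

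Among the markers of stellate cell identity, Lrat was lower with erythrodiol while Reln and Pdgfrb were higher on the scale of total counts and lower than genes of like length. Lrat, on chromosome 3 of GRCm38 from 82892579 to 82903973 on the minus strand, encodes lecithin retinol acyltransferase, the enzyme that esterifies retinol for storage. It had 2719 control and 2488 erythrodiol counts, 0.902 times the control level (0.854 to 0.953). Its log2 ratio of -0.15 stood -0.42 from the median of genes of like length, and 4.59% of these genes were lower. Lrat stayed below 0 under every scaling tried, between -0.42 and -0.15.

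Reln, on chromosome 5 from 21884454 to 22344702 on the minus strand, encodes reelin, a large secreted glycoprotein that stellate cells make in the liver. Its counts were 9811 and 11376, a ratio of 1.14 (1.11 to 1.17). The log2 ratio of 0.19 was above 0 by totals, by the trimmed mean (0.04) and by the median of all genes (0.03), but turned to -0.16 against genes of like length, which are among the longest of the table. Pdgfrb on chromosome 18, the receptor through which platelet-derived growth factor drives stellate cells to divide and migrate, had 2326 and 2683 counts, a ratio of 1.14 (1.08 to 1.20). Its log2 ratio was 0.19 by totals and -0.08 against genes of like length, where 33.3% of the genes were lower. The direction of Reln and of Pdgfrb therefore rests on the scaling.

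Some comparisons inside this set do not depend on the scaling. Counts of Pdgfrb per count of Lrat went from 0.855 in the control to 1.08 with erythrodiol, a difference between their log2 ratios of 0.33 (0.22 to 0.45). Both transcripts are close in length, with 5376 and 5349 bases, so the difference against genes of like length was 0.34. Reln per count of Lrat went from 3.61 to 4.57, a difference of 0.34 (0.25 to 0.43), which was 0.26 after the correction for length. Reln and Pdgfrb kept almost the same ratio, 4.22 and 4.24, and their difference of 0.01 had an interval from -0.08 to 0.10. Lrat thus stood apart from both receptor and reelin by more than the counting error.

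Des, on chromosome 1 from 75360329 to 75368579 on the plus strand, encodes the intermediate filament desmin of stellate cells and of muscle. It had 722 and 751 counts, a ratio of 1.03 (0.924 to 1.14). By totals its log2 ratio was 0.04, and under the other scalings it lay between -0.15 and -0.07, so that its direction rests on the scaling. Of 14 striated muscle markers, which mark another source of desmin, 10 had fewer than 100 counts. Acta1, the skeletal muscle actin, had 3 and 2.99 counts and Ckm, a creatine kinase, 3 and 0, while Neb was listed with 1372 and 2045.

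To show what lies in front of the genes that went apart, the 250 bases before the start of Reln and Lrat are given 5′ to 3′ from the RefSeq promoter table of GRCm38.p6, which held 5 of the 10 markers. Reln is chr5:22344706-22344955 and Lrat chr3:82903975-82904224, both on the minus strand. Capitals mark GGGCGG on either strand, the letters of a GC box.
Reln: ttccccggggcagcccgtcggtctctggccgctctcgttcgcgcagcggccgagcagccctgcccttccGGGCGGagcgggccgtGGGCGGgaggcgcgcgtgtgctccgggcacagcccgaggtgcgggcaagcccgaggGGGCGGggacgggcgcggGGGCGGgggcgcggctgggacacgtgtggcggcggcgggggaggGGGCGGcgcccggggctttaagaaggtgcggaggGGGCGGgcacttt
Lrat: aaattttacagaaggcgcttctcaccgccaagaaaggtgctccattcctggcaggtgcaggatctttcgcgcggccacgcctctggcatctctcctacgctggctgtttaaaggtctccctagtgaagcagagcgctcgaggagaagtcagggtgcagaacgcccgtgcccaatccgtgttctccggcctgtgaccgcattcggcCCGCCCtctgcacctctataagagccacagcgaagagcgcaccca
Reln held 6 matches in 80.0% G and C and Lrat 1 match in 59.2%, while 32.7% of 32851 promoters of this length held at least 1. Des held 2 and Timp1 1, and Acta2 held 0. These matches describe the letters of the window and were not related to the ratios.

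The contractile genes were nearly level between the groups by totals and against genes of like length. Acta2, on chromosome 19 from 34241090 to 34255590 on the minus strand, encodes the smooth muscle actin by which myofibroblasts are usually recognised. It had 529 control and 586 erythrodiol counts, a ratio of 1.09 (0.969 to 1.23). Its log2 ratio of 0.13 became -0.03 against genes of like length, with 45.1% of these genes lower, and -0.03 by the trimmed mean. Only 0.326% of its 50-base words were found in transcripts of other genes, Actg1 among them.

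Tagln, on chromosome 9 from 45929619 to 45936058 on the minus strand, encodes transgelin, an actin-binding protein of smooth muscle. Its counts were 1433 and 1430, a ratio of 0.984 (0.913 to 1.06), and its log2 ratio of -0.02 stood -0.07 from genes of like length. The log2 ratio of Tagln was -0.18 by the trimmed mean and -0.19 with the median of all genes set to 0. Exons of Pcsk7 and Gm48529 lie on the other strand of Tagln, and 58.3% of its 50-base words occur in them. The library protocol names no step that keeps the strand, so reads from Tagln and from these genes cannot be told apart where they overlap, and its value is uncertain to that extent. Pcsk7 was listed with 3563 and 4048 counts. Between Acta2 and Tagln the log2 ratios differed by 0.15 (-0.05 to 0.35), so no difference was detectable at this depth.

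For Acta2, the 250 bases before the RefSeq start are shown, chr19:34255374-34255623 on the minus strand, because smooth muscle genes are known for CArG boxes. Serum response factor binds to these boxes. On the minus strand the GENCODE gene given above begins at 34255590, so most of this window, with both marked matches, lies inside that gene. Capitals mark matches to the CArG box with at most 1 base that departs from it, on either strand.
Acta2: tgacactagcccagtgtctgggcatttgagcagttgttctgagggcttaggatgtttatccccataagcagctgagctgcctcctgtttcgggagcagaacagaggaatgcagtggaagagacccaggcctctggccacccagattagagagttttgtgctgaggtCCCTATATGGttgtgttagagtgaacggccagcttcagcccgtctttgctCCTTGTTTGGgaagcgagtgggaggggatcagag
The matches begin 84 and 34 bases before the RefSeq start, and 18.6% of 32851 promoters held such a match. The unaltered CArG box was found in 1.47% of promoters and in 0 of the 5 markers with a promoter in the table. Srf itself, the gene of serum response factor, had 1829 and 2130 counts, a log2 ratio of 0.20 and of -0.02 against genes of like length.

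Among the matrix genes, Lox and Lum held the lowest ratios of the 10 markers on both scales, and all 4 were below 0 by totals, although Timp1 was not below genes of like length (0.02). Dcn, on chromosome 10 from 97479609 to 97518143 on the plus strand, encodes decorin, a small leucine-rich proteoglycan that binds collagen fibrils and transforming growth factor beta. It had 32935 and 29753 counts, 0.890 times the control level (0.876 to 0.904). With this depth the counting interval of its log2 ratio was -0.19 to -0.14, and against genes of like length it stood at -0.28, with 18.4% of these genes lower. Lum, its neighbour on chromosome 10 from 97565128 to 97572703 on the plus strand, encodes lumican of the same proteoglycan family. Lum had 4116 and 3230 counts, 0.773 times the control level (0.738 to 0.810), and 5.19% of its neighbours in length were lower. Its log2 ratio lay between -0.53 and -0.36 under all scalings and the pseudocount tried.

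Counts of Dcn per count of Lum went from 8.00 to 9.21. The difference of 0.20 between their log2 ratios (0.13 to 0.27) was larger than the counting error, and with 1893 and 2075 bases it was almost the same against genes of like length, at 0.19. The ratio of Lum was thus lower than that of Dcn by more than counting error, whatever the scaling.

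Lox on chromosome 18, the gene of lysyl oxidase, which crosslinks collagen and elastin, was the least abundant of the 10 and had the lowest ratio. It had 259 and 197 counts, 0.750 times the control level (0.620 to 0.906). Against genes of like length it stood at -0.66 and 1.40% of these genes were lower, and this distance was -0.53 when the neighbours were chosen by both length and count. An exon of another gene, AC161119.1, lies on the other strand of Lox, but none of its 50-base words were shared.

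Timp1, on the X chromosome from 20870166 to 20874735 on the plus strand, encodes an inhibitor of matrix metalloproteinases that activated stellate cells and macrophages secrete. Its counts were 270 and 249, a ratio of 0.909 (0.762 to 1.08). At 899 bases it is the shortest of the 10, and its log2 ratio of -0.14 was close to the median of its neighbours, -0.16, with 51.9% of these genes lower. The difference to Lox, 0.28 (-0.10 to 0.66), was within the counting error. Timp1 was the only marker above genes of like length, by 0.02, and stood at -0.03 when neighbours were chosen by both length and count.

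All 10 markers had whole numbers as sums in both groups (within 0.005), as had 79.5% of the 13291 genes. Of the transcripts assembled by the authors beyond the annotation, 1 belonged to a marker, Pdgfrb, with 23 exons of which 21 have the ends of annotated ones, while 28.5% of all genes had at least 1. By the cellular component terms of the table, 5 of the 8 markers with a term were assigned to the proteinaceous extracellular matrix, namely Dcn, Lum, Reln, Lox and Timp1.

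Other genes of the lineage were read from lists, and for each list the share of genes above 0 stands against 71.2% over all genes. Of 25 other stellate cell genes with at least 100 counts, 15 were above 0 and 10 below, with a median log2 ratio of 0.04. Their intervals lay above 0 for 8 and below 0 for 3, and 0 reached a fold of 1.5. Against genes of like length 20 of the 25 were below, at a median of -0.14, beside -0.15 for the 10 markers. A median of this size was not particular to the lineage, since mesothelial markers had a median of -0.15 and lymphocyte and neutrophil markers of -0.13. Those lists were small and widely spread. The 7 mesothelial genes went from -0.90 to 0.46 and the 9 lymphocyte and neutrophil genes from -0.85 to 0.32. The lowest other stellate cell genes by this measure were Colec10, for a liver collectin (3742 and 3205 counts, -0.49), Pcdh7 (-0.41) and the filament gene Nes (-0.40). At the upper end stood Ecm1, of an extracellular matrix protein that holds transforming growth factor beta latent (13019 and 17175 counts, 0.27), and the transcription factors Hand2 (0.24) and Lhx2 (0.16), which are known for stellate cell identity. Gfap, a filament of quiescent stellate cells, had 40 and 45 counts.

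Of the 13 collagen chains, 11 were above 0 by totals, but 11 were below genes of like length, at a median of -0.26. The chains of fibrillar collagen I, Col1a1 (6138 and 6394 counts) and Col1a2 (4739 and 4817), had log2 ratios of 0.04 and 0.00, and Col3a1 (12187 and 11380) of -0.12. Against genes of like length these were -0.26, -0.27 and -0.39, and Col5a2 was lowest at -0.63. In the families of the matrix markers, Ogn was lowest among 10 lysyl oxidases and small proteoglycans, with 615 and 490 counts and -0.50 against genes of like length, whereas Bgn (0.06) and Prelp (0.10) lay above. That list had 7 genes above 0 and 3 below, a median of 0.12, and a median of -0.07 for length.

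Among 14 metalloproteinases and inhibitors, 8 were above 0 and 12 were below genes of like length, at a median of -0.17. Mmp13, a collagenase, was the only one past a fold of 1.5, with 124 and 79 counts and a log2 ratio of -0.67 (-1.10 to -0.25). Mmp12, the elastase of macrophages, had 4217 and 3064 counts (-0.48 by totals, -0.59 against genes of like length). Plau, of urokinase, had 510 and 394 (-0.39 and -0.54). Mmp15, Adamts1 and the inhibitor Timp3 stood at 0.36, 0.29 and 0.21 by totals. Against genes of like length they were at 0.11, 0.02 and -0.04.

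Of 22 genes of transforming growth factor beta and platelet-derived growth factor signalling, 15 were above 0, with a median of 0.08, and 17 were below genes of like length, at a median of -0.11. The lowest were Ltbp2, a latency binding protein (446 and 330 counts, -0.76 against like length), the decoy receptor Bambi (614 and 500, -0.60) and the ligand Pdgfd (355 and 287, -0.53). The intracellular mediators Smad3 (2000 and 2798, 0.22), Smad4 (0.12) and the inhibitor Smad7 (0.08) were highest. Among 12 portal fibroblast genes with at least 100 counts, 7 were above 0 and 7 below genes of like length, at medians of 0.05 and -0.08. Another 3 genes of this list had fewer counts, and their log2 ratios were 0.76 to 1.33 by totals. Elastin, Eln, was lowest (1103 and 914 counts, -0.50), while Igfbp6 (0.26), Dpt (0.20) and Col15a1 (0.16) were highest. The list of smooth muscle contractile genes also holds the regulators Srf, Mkl1 and Mkl2. Of its 12 genes with at least 100 counts, 10 were above 0 and 8 above genes of like length, at medians of 0.22 and 0.05. Synpo2 (-0.28) and Myl9 (-0.15) were lowest against genes of like length. Myh11, the smooth muscle myosin, had 359 and 403 counts (-0.12 against like length), and Cald1, with 27733 and 36970, stood at 0.17.

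**Figure D4:**
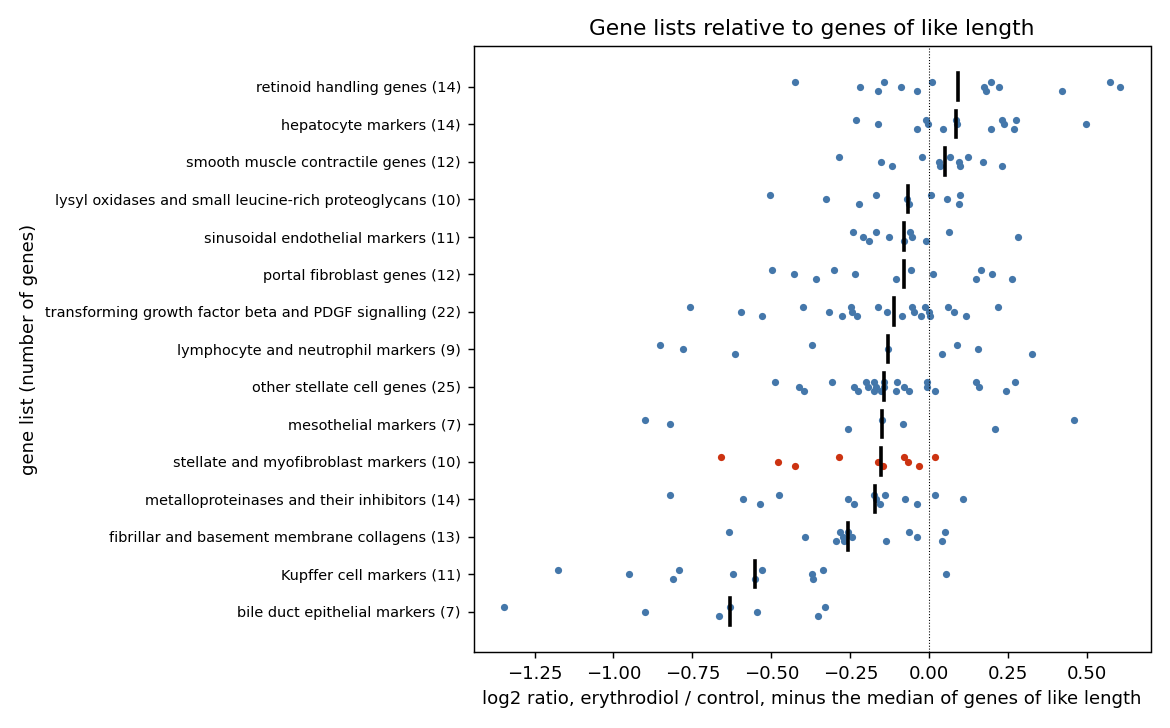
Log2 ratio of erythrodiol to control minus the median of genes of like length (horizontal axis) for every gene with at least 100 counts in 15 lists (vertical axis, number of genes in brackets), with black bars at the list medians and the 10 markers in red. Medians go from 0.09 for retinoid handling genes to -0.63 for bile duct markers. The 10 markers at -0.15 lie close to the other stellate cell genes at -0.14, but equally close to mesothelial markers at -0.15.

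Retinoid genes were read because Lrat is an enzyme of vitamin A storage. Of 14 such genes, 10 were above 0 by totals and 8 above genes of like length, at a median of 0.09. Cyp26b1, of an enzyme that breaks down retinoic acid, was highest, with 538 and 984 counts, 1.80 times the control level (1.62 to 2.01). Rdh11, a retinal reductase, had 1690 and 2629 counts (log2 ratio 0.62), and Rbp4, the plasma carrier of retinol, 260219 and 320954 (0.28). The lowest against genes of like length were Aldh1a3 (-0.42) and Aldh1a1 (-0.22), which make retinoic acid, and Cyp26a1 (-0.16).

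Reelin signals through a pair of lipoprotein receptors and an adaptor. Dab1, the adaptor that is phosphorylated when reelin binds, had 477 control and 110 erythrodiol counts, 0.227 times the control level (0.183 to 0.280). Its log2 ratio of -2.14 was -2.37 against genes of like length, in a table where 0.549% of genes were lower by a fold of 2 or more by totals and 0.466% against genes of like length. Of the 10 markers, 0 were. The receptor Vldlr had 713 and 610 counts, a log2 ratio of -0.25 (-0.40 to -0.09), and Lrp8, the other receptor, only 41 and 40. Dab2, an adaptor of endocytosis, had 1762 and 2198 (0.30). The paper also lists Dab1 among its down-regulated transcripts, from the same sequencing. Whether the counts of Dab1 came from few or many control pools was not analysed here.

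Markers of other liver cells moved beside these genes. Of 11 Kupffer cell markers, 10 were below 0, at a median of -0.59 and of -0.55 against genes of like length, and their summed level was 1406 CPM in the control and 948 with erythrodiol. Clec4f, a receptor restricted to Kupffer cells, had 19293 and 12507 counts, and Marco, a scavenger receptor, 6374 and 3086. All 7 bile duct markers with at least 100 counts were below 0, at a median of -0.56 and of -0.63 against genes of like length. The summed level of the 8 markers of the list was 120 and 80.9 CPM, of which Spp1 alone held 102 and 67.1. Epcam had 353 and 244 counts and Krt19 280 and 153. The counting interval of the log2 ratio held 0 for 1 Kupffer cell marker, Cd68, at 0.04 (-0.02 to 0.09). It also held 0 for 2 of the 7 bile duct markers, Krt7 and Sox9. Timp1 and Mmp12 are also transcribed in macrophages, and the part of these cells in the values of the matrix genes was not tested. Of 11 sinusoidal endothelial markers 8 were above 0 by totals, at a median of 0.14, but 9 were below genes of like length, at a median of -0.08. Stab2, a scavenger receptor of these cells, had 7173 and 8173 counts and stood at 0.17 by totals and -0.17 against genes of like length.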

How the data were processed

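Liver RNA of 14 pools, 7 per group, was sequenced by the authors, and groups were taken from the sample titles. Per the labels and the paper, clean reads were mapped with HISAT, transcripts were assembled with StringTie, and reads on reference plus new coding transcripts were counted with Bowtie2 and RSEM. The authors deposited an expected count per gene and group, not normalized and pooled over the libraries, with a transcript length. They also deposited counts of clean reads, genes and transcripts and mapping rates in percent per library. Columns with the authors' own log2 ratio, p-values and q-values were not used. Gene counts per library were not analysed here, so the test foreseen for them was not run.

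Counts were scaled to the total of each group. Sums have exact Poisson intervals and ratios exact Clopper-Pearson intervals at 95%, with counts rounded to whole numbers. Genes of like length were the 501 nearest in log length among genes with at least 100 summed counts, the gene itself left out. Differences between markers have conditional exact intervals. The 10 markers and the 16 lists were chosen with earlier results of these data known. Named are the markers, Apoe, Col1a1, Col1a2, Col3a1, defining markers of other cell types, and up to 3 genes at each end of a list by the ratio against like length. Srf, Gfap, Vldlr, Lrp8 and Pcsk7 were named after their values were seen. Coordinates and 50-base words are from GENCODE M21 on GRCm38, the build of the chromosomes in the deposited annotation. Promoters are from RefSeq.

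On simulated counts for 17552 genes, 100% of 200 genes changed 2-fold were recovered within 0.3 on the log2 scale, and 95.2% of 583 intervals held the true ratio. The simulated counts held Poisson counting error alone, so the spread between pools or mice was not tested. Recovery of changes smaller than 2-fold, such as those of the markers, was not tested either. Alternatives were other scalings (the median of all genes, the trimmed mean of log ratios, totals without the 100 highest genes), a pseudocount of 1 CPM, a minimum of 10 counts and other sets of neighbours. Calculations used scipy 1.17.1 with numpy 2.4.6, tables pandas 2.3.3 and figures matplotlib 3.10.9, under Python 3.11.15. Versions of the authors' tools are not given in the sources used here.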

Additional observations from a re-analysis of the deposited data

Results flagged for a closer look

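Control replicate 3 lay far from the other 6 control libraries in both mapping rates, by Dixon's criterion at 95%. It mapped 76.66% of its clean reads to the genome, where the others mapped 91.98% to 94.64%, and 64.33% to genes, where the others mapped 74.39% to 81.43%. The gap was 0.852 of the group's range for the genome rate and 0.588 for the gene rate, beside a critical value of 0.568. Chance passes that critical value in about 1 of 20 groups, and 14 combinations of group and measure were checked. Unique mapping to the genome was 55.27%, 41.62% and 56.16% in control replicates 1, 3 and 4. It was 62.64% to 69.06% in the other control libraries and 64.03% to 68% with erythrodiol. Transcripts detected were 26483, 30081 and 28632 in control replicates 1, 3 and 4. Other control libraries had 32515 to 34791, and erythrodiol libraries 32370 to 33651. Dixon's criterion tests 1 library at the end of a range and flagged neither measure. The control sums hold these libraries, and their part in the values of the 10 markers was not tested.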

How the results depend on the processing

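No paired analysis was possible because the gene values are sums over each group and carry no replicate numbers, and for the same reason no library could be left out. The log2 ratio of the summed counts of the 10 markers was -0.08 by totals, -0.25 with the median of all genes set to 0, -0.24 by the trimmed mean and -0.19 by totals without the 100 highest genes. The median over the markers, -0.08 by totals, was -0.24, -0.24 and -0.19, respectively. These scalings shift every gene by 0.16, 0.16 and 0.11. Centred on genes of like length, 1 marker in place of 0 was lower by 1.5-fold. Other sets of neighbours gave medians between -0.17 and -0.14. The ratios of Lrat, Lox, Dcn, Lum and Tagln were below 0 under every alternative, while those of Reln, Pdgfrb, Acta2, Des and Timp1 changed sign under at least 1 scaling. Depth limits Lox and Timp1 most, with 197 to 270 counts in a group, where the interval of the ratio ran from 0.620 to 0.906 and from 0.762 to 1.08.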

Other observations

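Markers of cells not treated above were read in the same way, beside a share of 71.2% of all genes above 0. Of 14 hepatocyte markers, 11 were above 0, at a median log2 ratio of 0.18 (0.09 against genes of like length, with 9 above), from Fgb (-0.17) to Pck1, the gluconeogenic enzyme, at 0.65. Of 7 mesothelial markers, which cover the liver surface and share Krt19 with bile ducts, 3 were above 0 by totals and 2 above genes of like length. Gpm6a, with 450 and 295 counts, stood at -0.63 and Wt1, with 101 and 160, at 0.64. The Wt1 interval was 0.27 to 1.02. Of 9 lymphocyte and neutrophil markers with at least 100 counts, 4 were above 0 by totals and 4 above genes of like length, and the neutrophil genes S100a8 (411 and 183 counts) and S100a9 (702 and 329) were the lowest, at -1.19 and -1.11. Only 2 of 14 striated muscle markers had at least 100 counts, Neb with 1372 and 2045 and Mylpf with 87 and 48.

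A list chosen after the values were seen, the 137 other genes that the table assigns to the proteinaceous extracellular matrix, had a median log2 ratio of 0.08, with 88 above 0. Against genes of like length 96 of the 137 were below, at a median of -0.13, where the 5 markers with this term were at -0.66 (Lox), -0.48 (Lum), -0.28 (Dcn), -0.16 (Reln) and 0.02 (Timp1). The middle 50% of the 137 genes lay between -0.33 and 0.02, and 41 were above genes of like length.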
